A study of Mus musculus with 18 samples.

Results

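The membrane adenylate cyclases of mouse, Adcy1 to Adcy9, were followed in ovaries of F1 females whose mothers had eaten a high-methionine or a control diet. The 9 genes were found by their symbols among the 30172 gene symbols of the 18 RNA-seq libraries. In these ovaries, F1-HHcy libraries had more Adcy7 and Adcy5 than F1-Control libraries on Pd3 and again on Pd7. Adcy4, Adcy6 and Adcy9 were also called higher on Pd7, though the main test called no difference between their diet effects on Pd7 and Pd3. No member was called on Pd21. Adcy3 and Adcy2 were called on none of the 3 days, and Adcy1 and Adcy8 were too low for the main test.

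The dams were C57BL/6J mice, and the diet with 3% methionine was given to raise their blood homocysteine (hyperhomocysteinemia, HHcy). According to the labels it began 4 weeks before mating and went on until weaning, while the control dams ate normal chow, and the F1 pups themselves were not treated. The study's methods give a different length of feeding before mating and a control diet with added methionine. Whole ovaries were taken at postnatal day 3, 7 or 21 (Pd3, Pd7, Pd21), with 3 libraries for each diet and day, which makes 6 groups. Whether a library held 1 pup or several is not given, so p-values measure the spread between libraries. By the labels, batch 1 held the libraries of the first 2 ages and batch 2 those of Pd21, which leaves each diet comparison inside a single batch.

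Adenylate cyclases make cyclic AMP from ATP. In the ovary they stand between the gonadotropin receptors and protein kinase A: follicle-stimulating hormone acts on granulosa cells and luteinizing hormone on theca cells through the stimulatory G protein, and cyclic AMP in the oocyte holds meiosis in arrest. The membrane forms differ in what else controls them. Adcy1, Adcy3 and Adcy8 (class I) respond to calcium and calmodulin, Adcy2, Adcy4 and Adcy7 (class II) are stimulated by G protein beta-gamma subunits, Adcy5 and Adcy6 (class III) are inhibited by the inhibitory G protein and by calcium, and Adcy9 (class IV) responds poorly to forskolin, the plant compound that activates the other membrane forms.

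The 9 genes lie apart from each other in the genome. In GENCODE vM21 (GRCm38), the calcium-responsive genes were Adcy1 (chr11:7063489-7178506, plus strand), Adcy3 (chr12:4133103-4213525, plus) and Adcy8 (chr15:64697084-64922296, minus). The beta-gamma-stimulated genes were Adcy2 (chr13:68620043-68999541, minus), Adcy4 (chr14:55769057-55784095, minus) and Adcy7 (chr8:88272403-88329962, plus). Of the others, Adcy5 (chr16:35154877-35305738, plus) and Adcy9 (chr16:4287529-4420498, minus) share a chromosome, and Adcy6 was at chr15:98589973-98610076 on the minus strand. Exons of 3 members overlapped exons of a gene on the opposite strand, Adcy3 with Cenpo over 1380 bases, Adcy6 with the antisense gene Gm29331 over 605 bases and Adcy2 with the antisense gene Gm35161 over 189 bases. The libraries were stranded, but the strand setting of the counting is not given in the sources used here, so reads of these pairs may not be told apart.

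RefSeq promoter windows (GRCm38.p6, 250 bases before to 50 bases after a transcript start) were at hand for 7 of the 9 members, in 10 windows. For each of the 4 members with an adjusted p under 0.05 at Pd7 a window is printed, 5′ to 3′ on the strand of the gene. The windows show how unlike these members are at annotated starts. Adcy7 has other windows too, described below, and all of its windows lie inside the GENCODE gene, downstream of its start at 88272403. Which start these ovaries use was not tested. Capitals mark the GC box (GGGCGG) and the core of the cAMP response element (TGACG), each searched on both strands.
Adcy7, chr8:88282742-88283041, plus strand: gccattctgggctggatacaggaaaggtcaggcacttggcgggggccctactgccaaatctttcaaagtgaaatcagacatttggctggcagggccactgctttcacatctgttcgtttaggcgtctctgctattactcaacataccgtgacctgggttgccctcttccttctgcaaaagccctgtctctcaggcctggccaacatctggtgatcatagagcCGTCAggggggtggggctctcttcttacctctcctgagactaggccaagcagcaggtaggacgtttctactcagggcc
Adcy5, chr16:35154614-35154913, plus strand: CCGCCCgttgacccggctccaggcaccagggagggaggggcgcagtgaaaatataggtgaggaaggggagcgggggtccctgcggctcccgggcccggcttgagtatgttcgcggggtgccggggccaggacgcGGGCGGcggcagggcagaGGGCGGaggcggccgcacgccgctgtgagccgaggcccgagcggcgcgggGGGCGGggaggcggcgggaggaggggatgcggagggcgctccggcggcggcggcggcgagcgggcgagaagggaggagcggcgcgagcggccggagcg
Adcy9, chr16:4420449-4420748, minus strand: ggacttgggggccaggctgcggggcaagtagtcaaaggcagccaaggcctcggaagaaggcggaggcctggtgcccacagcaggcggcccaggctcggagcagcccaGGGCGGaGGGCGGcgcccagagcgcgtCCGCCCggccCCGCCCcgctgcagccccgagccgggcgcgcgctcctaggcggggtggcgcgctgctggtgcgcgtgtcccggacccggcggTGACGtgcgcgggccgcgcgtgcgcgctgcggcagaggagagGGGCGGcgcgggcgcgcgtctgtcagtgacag
Adcy4, chr14:55784023-55784322, minus strand: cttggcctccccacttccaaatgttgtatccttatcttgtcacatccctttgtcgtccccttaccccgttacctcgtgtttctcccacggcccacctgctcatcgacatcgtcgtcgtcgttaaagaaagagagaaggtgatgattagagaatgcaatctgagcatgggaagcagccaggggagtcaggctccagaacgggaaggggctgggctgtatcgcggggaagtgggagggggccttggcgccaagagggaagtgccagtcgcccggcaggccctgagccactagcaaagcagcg

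The printed window of Adcy5 was 79% G and C and held 4 GC boxes, and that of Adcy9 was 78.3% G and C and held 5. The Adcy7 window had 54.7% G and C and no GC box, the other 2 windows of Adcy7 had 57% and 55.7%, and the Adcy4 window had 58% and no match to any motif searched. The core of the cAMP response element stood in the printed windows of Adcy7 (position -28 from the start, minus strand) and Adcy9 (position -24, plus strand), and in no other window of a member, against 20.8% of all 32851 RefSeq windows. The whole element, TGACGTCA, which the factor CREB binds, was in no window of a member and in 1.79% of all windows. The site of the NR5A factors (CAAGGTCA), which act on steroidogenic genes, was in the Adcy1 window alone among the members (position -175) and in 1.56% of all windows. GC boxes were also found in windows of Adcy1, Adcy2, Adcy3 and Adcy7, against 35.7% of all windows, and the FOXO site (GTAAACA) in no member, against 3.65%. A match is a description of the letters only.

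Gene counts summed to 33630304 fragments in the shallowest library and to 39398922 in the deepest, and the values are FPKM, which divide the fragments of a gene by its length and by the depth of the library. At this depth 1 fragment on a gene of 1 kilobase is worth 0.0254 to 0.0297 FPKM. Foxl2, a granulosa marker, was at 45.7 to 195 FPKM and Ddx4, a germ cell marker, at 3.27 to 21.9 FPKM over all libraries, so ovarian cells were seen in each. The F1-Control Pd7 replicate 2 library stood apart, with the highest sum of values over genes (532003 FPKM, against 400360 to 469733 in the other libraries), and F1-HHcy Pd3 replicate 3 was the least like the others of its group (mean r = 0.978 across genes). Results that rest on these libraries are also given without them. In whole ovary, fewer cells of a type and less RNA per cell cannot be told apart.

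The members differed widely in level. In F1-Control ovaries at Pd3, Adcy6 was the highest with 8.72 ± 1.47 FPKM (SD, n = 3), followed by Adcy3 (5.41 ± 1.33), Adcy2 (3.35 ± 0.366), Adcy9 (2.58 ± 0.27) and Adcy7 (1.59 ± 0.208), and none of these neighbours overlapped. Adcy4 (0.987 ± 0.312) and Adcy5 (0.693 ± 0.337) overlapped each other, and Adcy1 (0.182 ± 0.0538) and Adcy8 (0.00938 ± 0.0118) were lowest. In each of the other 5 groups Adcy7 had the highest mean. In F1-HHcy ovaries at Pd7 it reached 20.5 ± 1.41 FPKM, above every library of Adcy6 (10.2 ± 1.31), while in the other 4 groups its range overlapped that of the next member. In F1-Control ovaries at Pd21 the 5 highest members, Adcy7, Adcy3, Adcy6, Adcy5 and Adcy9, had means between 5.10 and 8.68 FPKM, and each overlapped the next. These orders depend on the gene length. The length behind the values was 13134 bases for Adcy6 and 9547 for Adcy9, against 6782 and 5197 bases of exon in GENCODE vM21. With GENCODE lengths Adcy6 had the highest mean in every group except F1-HHcy at Pd7. In that group Adcy7 (22.4 ± 1.54) was then highest, but its libraries overlapped those of Adcy6 (19.8 ± 2.54). The length is the same in all libraries and does not enter a comparison of a gene between groups.

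**Figure D1:**
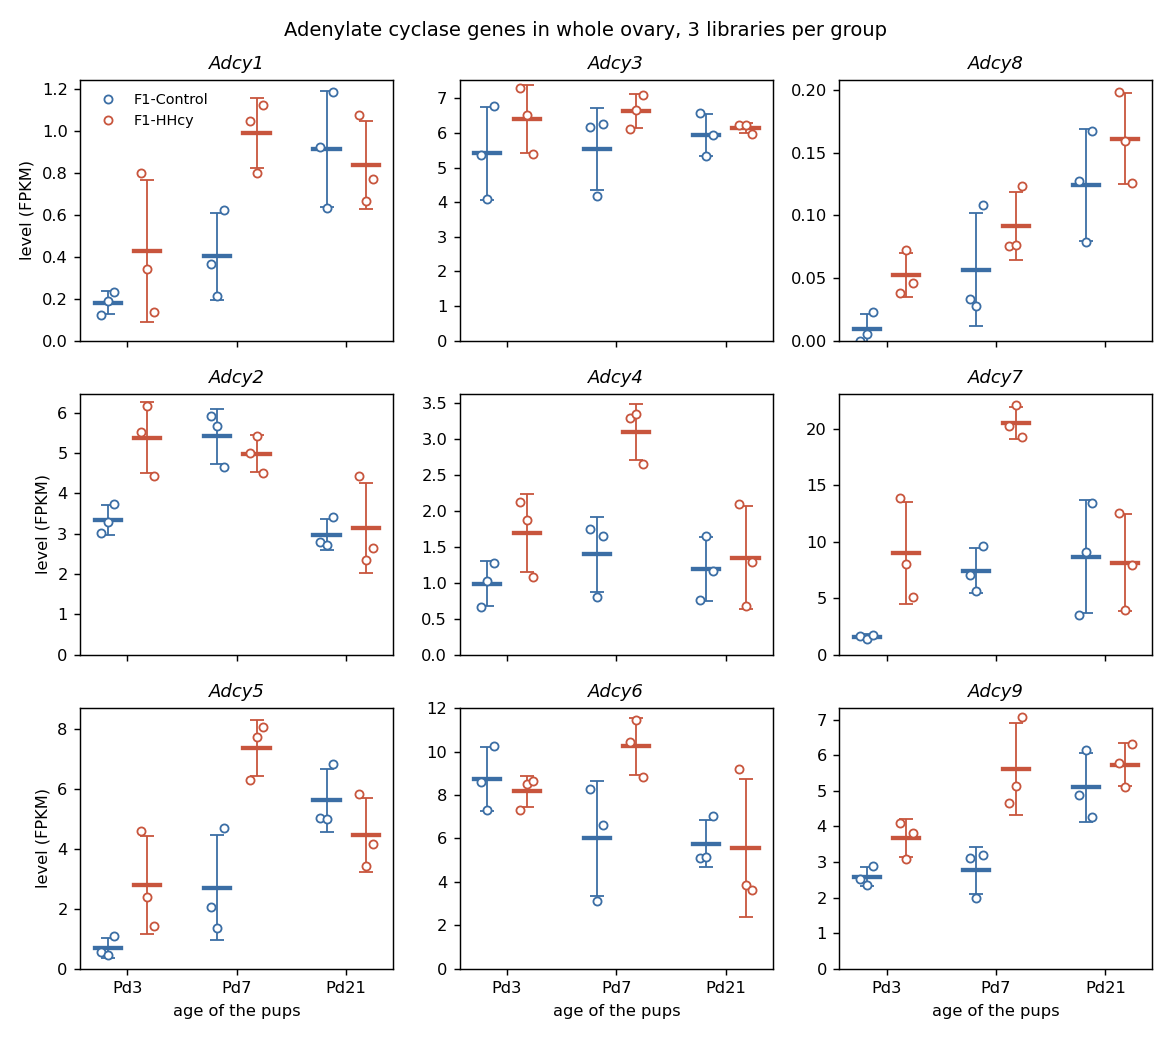
Level of each member in FPKM by age of the pups and diet of the dam, with F1-Control in blue and F1-HHcy in red, each circle a library, the thick line the mean and the whiskers the SD (n = 3, cut at 0). At Pd7 all F1-HHcy circles of Adcy1, Adcy4, Adcy5, Adcy6, Adcy7 and Adcy9 lie above the F1-Control circles, and at Pd21 the diets overlap in every panel.

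Summed over the 9 members, the Pd3 level was 23.5 ± 4.07 FPKM in F1-Control and 37.6 ± 7.84 in F1-HHcy. The corresponding Pd7 levels were 31.7 ± 7.67 and 59.5 ± 2.84 FPKM, and those of Pd21 were 36.3 ± 6.84 and 35.5 ± 10.7 FPKM. The libraries of the diets did not overlap at Pd3 (20.1 to 28.0 against 30.1 to 45.7 FPKM) or at Pd7 (23.0 to 37.4 against 57.1 to 62.7), and they overlapped at Pd21. Adcy7 made up 6.78% of the sum in F1-Control at Pd3 and 23.0% in F1-HHcy at Pd3, and at Pd7 its share was 23.5% in F1-Control and 34.5% in F1-HHcy. The share of Adcy6 was 37.1% in F1-Control and 22.6% in F1-HHcy at Pd3. Both mean shares in F1-HHcy ovaries at Pd3 lay nearer to those of F1-Control ovaries at Pd7, where Adcy6 had 18.4%, than at Pd3. Their SDs in F1-HHcy at Pd3 were 6.82 (Adcy7) and 6.37 (Adcy6) percentage points. Both are parts of the same sum and are not independent. The level of Adcy6 at Pd3 was 8.72 FPKM in F1-Control and 8.17 in F1-HHcy, while the sum was higher in F1-HHcy. The mean shares of Adcy1, Adcy3, Adcy4, Adcy5 and Adcy8 also lay nearer to F1-Control at Pd7. Those of Adcy2 and Adcy9 lay nearer to F1-Control at Pd3. These sums and shares depend on the gene lengths too. With GENCODE lengths the share of Adcy6 was 52.0% in F1-Control and 34.4% in F1-HHcy at Pd3 and 29.1% in F1-Control at Pd7, and that of Adcy7 was 5.34%, 20.1% and 21.2% in the same groups.

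**Figure D2:**
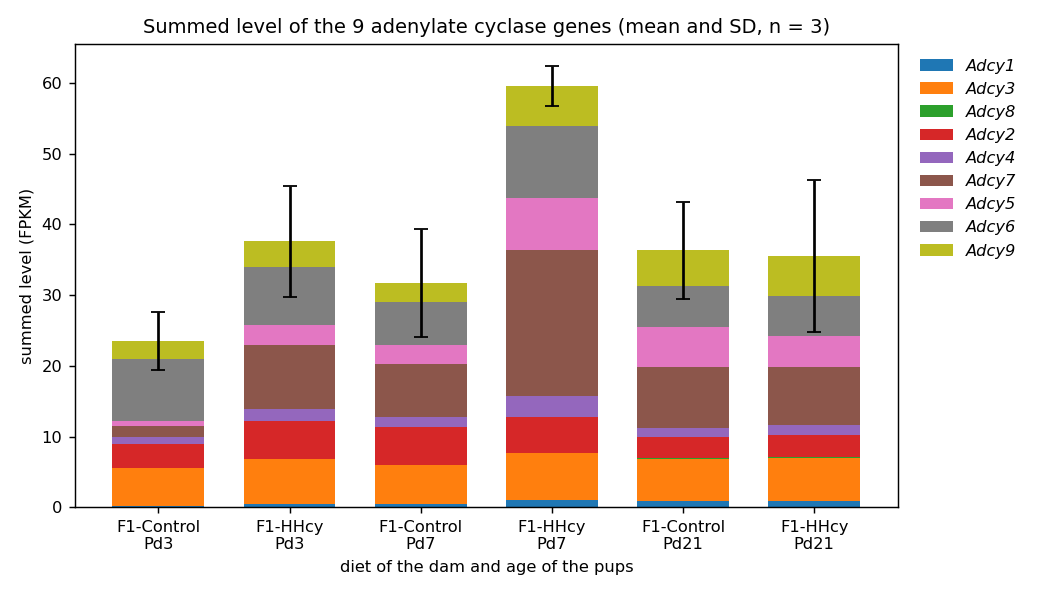
Summed FPKM of the 9 members in each group, with the mean of each member stacked by colour and the SD of the sum as whiskers (n = 3). The F1-HHcy column at Pd7 is the highest at 59.5 FPKM, with Adcy7 as its largest part, and the columns of Pd21 are close to each other.

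The first comparison asked how the diet of the dam changed the family at Pd3, when most follicles are primordial. Adcy7 and Adcy5 were higher in F1-HHcy ovaries and the other 5 tested members were not called, so 2 of 7 tested members were called higher and none lower. Of all 13277 genes tested at Pd3, 5% were called higher and 4.74% lower. Calls asked for a p under 0.05 before adjustment together with a change of over 0.58 in size on the log2(FPKM + 1) scale, a scale that understates the change of low genes. The median log2 fold change was 0.43 over the 7 members and -0.03 over all genes tested. Adcy1 and Adcy8 did not reach 1 FPKM in 3 of the 6 libraries and were left out of this test.

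Adcy7, a class II member known mainly from blood and immune cells, had 1.61, 1.36 and 1.78 FPKM in the F1-Control libraries at Pd3 and 13.9, 8.04 and 5.09 FPKM in the F1-HHcy libraries. The lowest F1-HHcy library was thus above the highest F1-Control library, and the ratio of the means was 5.68. The log2 fold change was 1.86 (SE 0.30), with an adjusted p of 0.0288 by limma, and Adcy7 was the only member under 0.05 at Pd3, where 1.64% of all genes tested were higher with such a value. Adcy5, a class III member best known from striatum and heart, had 0.544, 0.457 and 1.08 FPKM in F1-Control and 4.59, 2.38 and 1.43 FPKM in F1-HHcy. The groups did not overlap and the ratio of the means was 4.04, but the spread within F1-HHcy was wide. Its log2 fold change was 1.10 (SE 0.31) with an adjusted p of 0.0975 by limma, so it was called by the unadjusted p only. Only 1 F1-Control library of Adcy5 reached 1 FPKM, so that it passed the filter through its F1-HHcy libraries.

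Adcy2 and Adcy9 were also higher in every F1-HHcy library than in any F1-Control library at Pd3, by less than the size asked for. Adcy2 had 3.01, 3.29 and 3.74 FPKM in F1-Control and 5.53, 6.18 and 4.44 in F1-HHcy, a difference of 0.55 on the log2 scale (SE 0.15, adjusted p = 0.0897 by limma). Adcy9 had 2.52, 2.35 and 2.88 FPKM against 4.10, 3.09 and 3.82, a difference of 0.38 (SE 0.14, adjusted p = 0.177). In all, 4 of the 7 tested members did not overlap between the diets in this direction, against 11.8% of all genes tested. Adcy4 overlapped (0.657, 1.03 and 1.28 FPKM against 2.12, 1.87 and 1.08; log2 fold change 0.43, SE 0.21, adjusted p = 0.269). Adcy3 and Adcy6 overlapped as well, at log2 fold changes of 0.22 (95% interval -0.21 to 0.65) and -0.08 (-0.41 to 0.26). Adcy1 had 54, 84 and 100 fragments in F1-Control and 358, 152 and 58 in F1-HHcy, so 2 F1-HHcy libraries lay above the F1-Control range and 1 inside it. Adcy8, a form known from brain, had 0, 1 and 4 fragments in F1-Control and 7, 13 and 8 in F1-HHcy, counts that do not overlap but are near the limit of detection.

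F1-HHcy Pd3 replicate 3 had the lowest value of that group for Adcy1, Adcy2, Adcy3, Adcy4, Adcy5 and Adcy7. Without that library 4 of 7 members were called higher, since Adcy2 (log2 fold change 0.66) and Adcy4 (0.60) then passed. Markers of other cell types moved with the diet at Pd3. All the counts of markers are to be read against the 5% of genes called higher and 4.74% called lower. Of 6 tested stroma markers, 6 were called higher, and their summed level was 366 to 507 FPKM in F1-Control and 685 to 902 in F1-HHcy. Of 6 tested endothelial markers 4 were called higher (summed level of the list 41.7 to 58.7 against 74.8 to 104 FPKM), and of 6 pericyte markers 3 (16.1 to 19.9 against 27.2 to 33.7). Of 4 tested granulosa markers 2 were called higher (143 to 160 against 183 to 427), and all 4 erythroid markers were lower (3150 to 9060 against 686 to 953). None of 5 tested markers of macrophages and leukocytes was called (54.6 to 99.9 against 63.3 to 81.6 FPKM), and none of 3 theca markers (105 to 157 against 78.1 to 692). Of 6 smooth muscle markers 1 was higher (102 to 146 against 67.8 to 392). Of 8 germ cell and oocyte markers 2 were higher and 3 lower, of 5 surface epithelium markers and 3 multiciliated oviduct markers none was called, and of 4 nerve and glia markers 1 was higher and 1 lower. No adipocyte marker was tested, and Cfd and Lep were at 0 in all F1-Control libraries. The pericyte marker Cspg4 and the glial marker S100b passed the filter through their F1-HHcy libraries. No other marker was at 0 in a whole group, and their part in the change of the cyclases was not tested.

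At Pd7, when the first follicles grow, more members were called than at Pd3. The contrast of the diet effect at Pd7 with that at Pd3, given below, called only Adcy2. Adcy4, Adcy5, Adcy6, Adcy7 and Adcy9 were higher in F1-HHcy ovaries, which makes 5 of 7 tested members called higher and none lower, while of 13299 genes tested 9.06% were called higher and 7.35% lower. The called members belong to classes II, III and IV. Adcy2 of class II was not called, nor was Adcy3, the only member of class I that was tested. Adcy1, also of class I, was under the filter, and its libraries did not overlap between the diets. The median log2 fold change was 0.79 over the 7 members and -0.0015 over all genes tested. With an adjusted p under 0.05, 4 of the 5 remained (Adcy4, Adcy5, Adcy7 and Adcy9), against 5.88% of all genes that were higher with such a value. All F1-HHcy libraries lay above all F1-Control libraries for the same 5 members, against 19.5% of all genes tested.

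Adcy7 had 7.07, 5.63 and 9.63 FPKM in F1-Control and 20.2, 22.0 and 19.3 in F1-HHcy at Pd7. The F1-HHcy libraries lay close together and at 2.76 times the F1-Control mean, and the log2 fold change was 1.37 (SE 0.18, adjusted p = 0.00336 by limma). Adcy5 had 2.07, 1.35 and 4.69 FPKM in F1-Control and 6.29, 7.72 and 8.07 in F1-HHcy. F1-Control replicate 3 was the highest control library for Adcy5 and still below all of F1-HHcy, and the log2 fold change was 1.27 (SE 0.28, adjusted p = 0.0216).

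Adcy9, the class IV member, had 3.11, 2.00 and 3.18 FPKM in F1-Control and 4.65, 5.13 and 7.08 in F1-HHcy, which differed by 0.81 (SE 0.20, adjusted p = 0.0291 by limma). Adcy4 had 1.74, 0.796 and 1.65 FPKM against 3.29, 3.34 and 2.65, which on the log2 scale is 0.79 (SE 0.19, adjusted p = 0.0301). In both genes the groups were apart, and F1-Control replicate 2 was the lowest library. Adcy6, known as the main form of the heart together with Adcy5, had 8.29, 3.12 and 6.60 FPKM in F1-Control and 10.4, 11.5 and 8.85 in F1-HHcy. Its highest F1-Control library was close to its lowest F1-HHcy library, and the log2 fold change was 0.76 (SE 0.27, adjusted p = 0.0915). Without F1-Control Pd7 replicate 2, the library that stood apart, Adcy6 was no longer called (log2 fold change 0.41, adjusted p = 0.145), and it also missed the call without F1-HHcy Pd7 replicate 2 (0.68, adjusted p = 0.234). The calls of the other 4 members held without either of these libraries.

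The remaining members at Pd7 were Adcy3, Adcy2, Adcy1 and Adcy8. Adcy3, the form of olfactory and other primary cilia, had 6.17, 4.17 and 6.27 FPKM in F1-Control and 6.12, 6.67 and 7.10 in F1-HHcy, and it differed by 0.24 on the log2 scale (95% interval -0.14 to 0.62). Adcy2 had 5.91, 5.68 and 4.65 FPKM against 5.01, 5.43 and 4.51, with a log2 fold change of -0.10 (-0.44 to 0.24). Both overlapped between the diets. Adcy1 was under the filter on FPKM but its long transcript gave 162, 93 and 282 fragments in F1-Control and 440, 332 and 514 in F1-HHcy, which did not overlap. In a limma-voom fit of the recovered fragments, with at least 10 fragments in 3 libraries and added after seeing the data, the log2 fold change of Adcy1 was 1.42 (SE 0.34, adjusted p = 0.0332). In that fit 6 of 9 members were called higher at Pd7, against 13.1% of 18121 genes tested. Adcy8 had 6, 5 and 20 fragments in F1-Control and 13, 13 and 23 in F1-HHcy, which overlapped (log2 fold change 0.89, SE 0.67, adjusted p = 0.387).

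**Figure D3:**
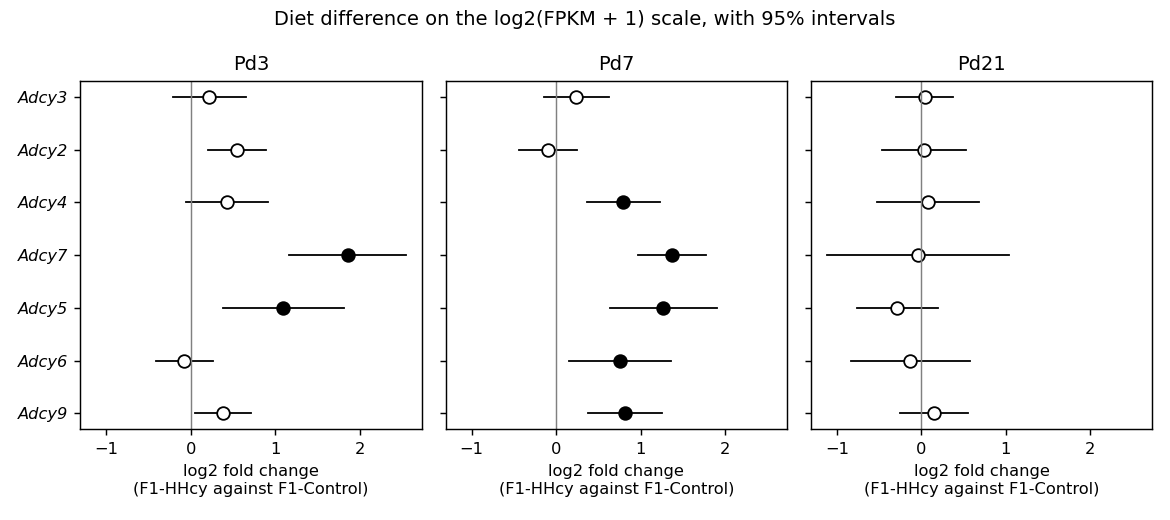
Log2 fold change of each tested member, F1-HHcy against F1-Control, on the log2(FPKM + 1) scale at Pd3, Pd7 and Pd21, with the 95% interval of the limma fit as a line. Filled circles are called (2 at Pd3, 5 at Pd7, none at Pd21), and all filled circles lie to the right of 0.

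Cell type markers moved with the diet at Pd7 too, where 9.06% of genes were called higher and 7.35% lower. All 7 theca and steroidogenic markers were called higher, with a summed level of 222 to 458 FPKM in F1-Control and 1151 to 1215 in F1-HHcy, and 4 of 6 granulosa markers were higher (182 to 428 against 439 to 720). Of 8 germ cell and oocyte markers 7 were lower (691 to 1183 against 421 to 749), as were 3 of 5 surface epithelium markers (381 to 612 against 164 to 351) and the 3 tested erythroid markers (795 to 4550 against 246 to 426). Of 6 stroma markers 1 was higher and 1 lower, of 7 endothelial markers none was called, and of 5 tested macrophage and leukocyte markers 2 were lower. Of 3 tested adipocyte markers 2 were higher, Plin1 and Cfd (summed level of the list 1.32 to 3.90 against 9.05 to 15.0 FPKM), and of 4 nerve and glia markers 1 was higher and 1 lower (43.1 to 45.3 against 33.1 to 34.2). Of 7 smooth muscle markers 1 was higher, of 6 pericyte markers 1 was lower, and of 2 multiciliated oviduct markers none was called. Insl3, Cyp17a1, Lhcgr, Plin1 and Cfd, with at most 1 F1-Control library at 1 FPKM, passed the filter through their F1-HHcy libraries. None of these markers was at 0 in a whole group. The part of these cell types in the change of the cyclases was not tested.

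At Pd21 no member was called. Of 7 tested members 0 were called higher or lower, none had an unadjusted p under 0.05, and the adjusted p was 1.00 for each, while of 13350 genes tested 0.0824% were called higher and 5.06% lower. The diets overlapped for every member, while 1.92% of genes had all F1-HHcy libraries above all F1-Control libraries. The share of genes with all F1-HHcy libraries below was not counted. Limma-voom on the fragments also called 0 members. Adcy7 had 3.50, 9.12 and 13.4 FPKM in F1-Control and 12.5, 3.94 and 7.98 in F1-HHcy. Both groups spread widely, and the log2 fold change of -0.04 had a 95% interval from -1.12 to 1.04, which holds changes as large as that of Adcy9 at Pd7. Adcy5 had 5.04, 4.98 and 6.81 FPKM against 5.83, 3.41 and 4.15, a log2 fold change of -0.29 (-0.77 to 0.19). The intervals were narrower for Adcy3 (0.04, -0.30 to 0.38), Adcy9 (0.15, -0.25 to 0.55) and Adcy2 (0.03, -0.46 to 0.53) than for Adcy4 (0.08, -0.53 to 0.68) and Adcy6 (-0.13, -0.83 to 0.57). The F1-Control libraries of this day held more of the multiciliated oviduct markers, all 4 of which were lower in F1-HHcy (47.6 to 184 FPKM summed in F1-Control, 4.03 to 7.15 in F1-HHcy), and all 5 surface epithelium markers were lower (296 to 347 against 89.2 to 198). Of these oviduct markers Foxj1, Dnah5 and Ccdc39 passed the filter through their F1-Control libraries. Of 7 smooth muscle markers 3 were lower, as were 2 of 3 adipocyte markers and 1 each of the pericyte, stroma and nerve and glia markers. Their part in the values of the cyclases was not tested.

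The diet effects of different days were then compared in 1 model of all 18 libraries with 14607 genes, in which 8 members were tested, Adcy1 among them. Between Pd21 and Pd3, 13% of genes were called in either direction, 1320 of 14607 with a lower diet effect at Pd21. Such a smaller effect was called for 2 of 8 members. These were Adcy7, by -1.90 (SE 0.56, adjusted p = 0.0652 by limma), and Adcy5, by -1.39 (SE 0.43, adjusted p = 0.089). Between Pd21 and Pd7, 15.3% of genes were called in either direction, 1420 of 14607 with a lower diet effect at Pd21. Of the 8 members, 5 had a smaller effect at Pd21. The differences were -1.56 for Adcy5 (adjusted p = 0.0544), -1.42 for Adcy7 (0.175), -0.89 for Adcy6 (0.242), -0.72 for Adcy4 (0.251) and -0.66 for Adcy9 (0.152). Between Pd7 and Pd3, 1 of 8 members differed, against 10% of genes. This was Adcy2, whose effect was smaller at Pd7 by -0.65 (SE 0.24, adjusted p = 0.268). No member passed an adjusted p of 0.05 in any of these contrasts, and the share for Pd7 against Pd3 was near that of all genes. That count was 0 without F1-HHcy Pd3 replicate 2, and 2 without F1-Control Pd3 replicate 2, F1-Control Pd7 replicate 1 or F1-Control Pd7 replicate 3. Where 2 were called, 1 effect was smaller at Pd7 and 1 was larger. Between Pd21 and Pd7 the count was 1 without F1-Control Pd7 replicate 2, 2 without F1-HHcy Pd21 replicate 2 or F1-Control Pd21 replicate 3, and 3 without F1-HHcy Pd7 replicate 1 or F1-HHcy Pd21 replicate 3. In contrasts with Pd21, the day and the batch cannot be told apart.

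Within each diet, Pd7 was compared with Pd3 to see how the family changes as follicles begin to grow, and these contrasts share libraries with the diet comparisons above. In F1-Control ovaries Adcy7 and Adcy5 were higher at Pd7, which makes 2 of 8 tested members, against 6.76% of 14607 genes called higher. The log2 fold change of Adcy7 was 1.68 (SE 0.39, adjusted p = 0.0139 by limma) and that of Adcy5 was 1.04 (SE 0.31, adjusted p = 0.0382), and the value of Adcy5 was 0.68 (adjusted p = 0.179) without F1-Control Pd7 replicate 3. Adcy2 was not called at 0.56 (SE 0.17, adjusted p = 0.0445), just under the size asked for. In F1-HHcy ovaries 3 of 8 members were higher at Pd7, against 5.76% of genes. These were Adcy5 (log2 fold change 1.22, SE 0.31, adjusted p = 0.0352), Adcy7 (1.20, SE 0.39, adjusted p = 0.0788) and Adcy4 (0.62, SE 0.24, adjusted p = 0.124). Adcy4 was no longer called without F1-HHcy Pd3 replicate 3 (0.45) or without F1-HHcy Pd7 replicate 2 (0.58, adjusted p = 0.296). Adcy3 was nearly level in both diets, at 0.03 and 0.05. At Pd3 the F1-HHcy mean of Adcy7, 9.01 ± 4.48 FPKM, was close to the F1-Control mean at Pd7, 7.44 ± 2.02, and the libraries of these groups overlapped.

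Around the cyclases, 160 genes of the pathway were listed by role, of which 158 were in the files (Akap2 and Akap4 were not analysed here). The shares to read their calls against are 5% of all genes higher and 4.74% lower at Pd3, and 9.06% and 7.35% at Pd7. With lists this short, 1 or 2 calls are near those shares. Of 12 G protein subunit genes, 10 were tested at Pd3 with no call and 9 at Pd7 with 1 call, Gnao1, an inhibitory-type alpha subunit best known from brain. Gnao1 was 1.29 ± 0.642 FPKM in F1-Control and 4.62 ± 0.739 in F1-HHcy at Pd7 (log2 fold change 1.33, adjusted p = 0.00761 by limma). The most abundant subunit genes were not called, Gnb1 at Pd3 (134 ± 2.39 against 107 ± 14.4 FPKM), Gnai2 at Pd7 (102 ± 5.43 against 96.4 ± 6.08 FPKM) and Gnas, the stimulatory alpha subunit, at Pd21 (145 ± 17.5 against 130 ± 24.7 FPKM). Of 36 receptors that couple to the stimulatory G protein, only 6 passed the filter at Pd3 and 9 at Pd7. At Pd3, 1 of 6 was higher, the parathyroid hormone receptor Pth1r (2.61 ± 0.372 against 5.11 ± 1.16 FPKM, log2 fold change 0.75, adjusted p = 0.0638). At Pd7, 4 of 9 were higher and none lower: the luteinizing hormone receptor Lhcgr, the follicle-stimulating hormone receptor Fshr, and the prostaglandin E2 receptors Ptger2 and Ptger4. Lhcgr is also in the theca marker list and Fshr in the granulosa marker list, so their calls are counted there too. Lhcgr was 1.49 ± 2.06 FPKM in F1-Control and 12.6 ± 5.92 in F1-HHcy (log2 fold change 2.64, adjusted p = 0.0119) and Ptger2 1.73 ± 0.589 against 3.84 ± 0.711 FPKM (0.83, adjusted p = 0.0249). Lhcgr and Ptger4 reached 1 FPKM in 1 F1-Control library each and passed the filter through their F1-HHcy libraries, where they were high. The most abundant receptor of the list, the adrenomedullin receptor Calcrl, was not called at Pd3 (6.14 ± 0.697 against 8.44 ± 0.664 FPKM) or at Pd7 (7.87 ± 0.465 against 7.61 ± 2.31 FPKM), nor was Fshr at Pd21 (8.18 ± 1.72 against 7.63 ± 3.89 FPKM).

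Of the receptors listed under the inhibitory G protein, 3 of 11 tested were lower at Pd3 and none higher. These were the prostaglandin E2 receptor Ptger3 (log2 fold change -0.79, adjusted p = 0.0559 by limma), the muscarinic receptor Chrm4 (-0.97, adjusted p = 0.0907) and the chemokine receptor Cxcr4 (-0.72, adjusted p = 0.0967). At Pd7, 1 of 11 was lower and 1 higher. The adenosine receptor Adora1 was 11.4 ± 3.41 FPKM in F1-Control and 2.78 ± 0.172 in F1-HHcy (-1.68, adjusted p = 0.00269), and the GABA receptor subunit Gabbr1 was 8.44 ± 3.95 against 22.9 ± 5.6 FPKM (1.42, adjusted p = 0.0234). The most abundant genes of the list were not called, Adora1 at Pd3 (21.0 ± 3.93 against 13.1 ± 7.01 FPKM, -0.78, adjusted p = 0.276) and the atypical chemokine receptor Ackr3 at Pd7 (15.8 ± 5.46 against 19.3 ± 4.12 FPKM) and Pd21 (15.6 ± 5.48 against 15.5 ± 4.94 FPKM). Ackr3 was grouped here by the list, and its coupling to a G protein was not measured. The median log2 fold change of the tested members of the list was 0.21 at Pd3 and -0.06 at Pd7.

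Among the targets of cyclic AMP, the regulatory subunit Prkar2b of protein kinase A was higher on both early days and the kinase inhibitor Pkig lower, and these were the only calls of 8 tested genes of the list on each day. Prkar2b was 21.7 ± 1.3 against 55.2 ± 31.1 FPKM at Pd3 (log2 fold change 1.17, adjusted p = 0.104 by limma) and 42.4 ± 18.7 against 126 ± 10.6 FPKM at Pd7 (1.62, adjusted p = 0.00642). Pkig was 72.0 ± 2.57 against 47.8 ± 8.84 FPKM at Pd3 (-0.60, adjusted p = 0.0706) and 54.9 ± 13.9 against 26.0 ± 2.45 FPKM at Pd7 (-1.03, adjusted p = 0.00939). The most abundant gene of the list, the regulatory subunit Prkar1a, was not called at Pd3 (89.5 ± 2.46 against 91.2 ± 3.16 FPKM) or Pd7 (86.8 ± 5.52 against 85.5 ± 7.83 FPKM), nor was Prkar2b at Pd21 (138 ± 40.1 against 162 ± 44.8 FPKM). Of the other effectors, Rapgef4 (Epac2), an exchange factor that binds cyclic AMP, was higher at Pd3 (1.16 ± 0.173 against 3.08 ± 1.79 FPKM, 0.82, adjusted p = 0.183) and at Pd7 (2.92 ± 1.13 against 9.04 ± 0.304 FPKM, 1.39, adjusted p = 0.00456), and Popdc2, which also binds cyclic AMP, at Pd7 (0.74, adjusted p = 0.0149). That made 1 of 3 and 2 of 4 tested genes, but Popdc2 reached 1 FPKM in no F1-Control library and passed the filter through F1-HHcy. At Pd21 Rapgef4 was not called (5.47 ± 2.86 against 7.39 ± 0.956 FPKM). Of 11 tested anchoring proteins that hold protein kinase A in place, none was called at Pd3, where Ezr was the most abundant (88.1 ± 2.9 against 77.3 ± 16.2 FPKM), and 2 were lower at Pd7, Akap12 (-0.81, adjusted p = 0.0145) and Ezr (-0.79, adjusted p = 0.0153).

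The enzymes that break cyclic AMP down gave few calls. Pde7b was higher at Pd3 (1.46 ± 0.0371 against 5.12 ± 0.751 FPKM, log2 fold change 1.31, adjusted p = 0.0142 by limma) and at Pd7 (3.82 ± 1.54 against 8.98 ± 0.604 FPKM, 1.10, adjusted p = 0.0169), and Pde1a was lower at Pd7 (-0.73, adjusted p = 0.015). These were 1 of 9 tested phosphodiesterases at Pd3 and 2 of 10 at Pd7. The most abundant phosphodiesterase genes, Pde1a at Pd3 (7.28 ± 0.477 against 5.62 ± 1.33 FPKM), Pde8a at Pd7 (5.9 ± 0.307 against 7.09 ± 0.545 FPKM) and Pde7b at Pd21 (9.08 ± 3.38 against 10.6 ± 2.28 FPKM), were not called. Of 11 CREB factors and coactivators, Creb3l1 was higher at Pd3 and Crebbp, Creb3l2 and Crtc1 at Pd7, each with an adjusted p over 0.05 (0.0902 for Crebbp, the lowest of the 3 at Pd7). Creb3, the most abundant of the list, was not called at Pd3 (29.1 ± 5.94 against 26.4 ± 1.42 FPKM), Pd7 (29.9 ± 6.33 against 26.4 ± 3.18 FPKM) or Pd21 (25.1 ± 3.13 against 21.7 ± 3.39 FPKM). Of 20 tested regulators outside the G proteins, Rgs2 and Rgs4, which shorten G protein signals, were higher at Pd3, though Rgs4 reached 1 FPKM in no F1-Control library and passed the filter through F1-HHcy. At Pd7, Rgs2 (121 ± 24.1 against 237 ± 20.4 FPKM, 0.98, adjusted p = 0.0112), Camk2g and Prkcd were higher and Camk2b was lower (-0.80, adjusted p = 0.0144). At Pd21, Ezr was the only gene called in the 9 lists (-0.83, adjusted p = 0.0812). The calmodulin gene Calm2, the most abundant regulator, was called on no day (504 ± 40.6 against 492 ± 50.8 FPKM at Pd3, 507 ± 104 against 377 ± 39.8 FPKM at Pd7 and 360 ± 35.8 against 347 ± 61.0 FPKM at Pd21).

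**Figure D4:**
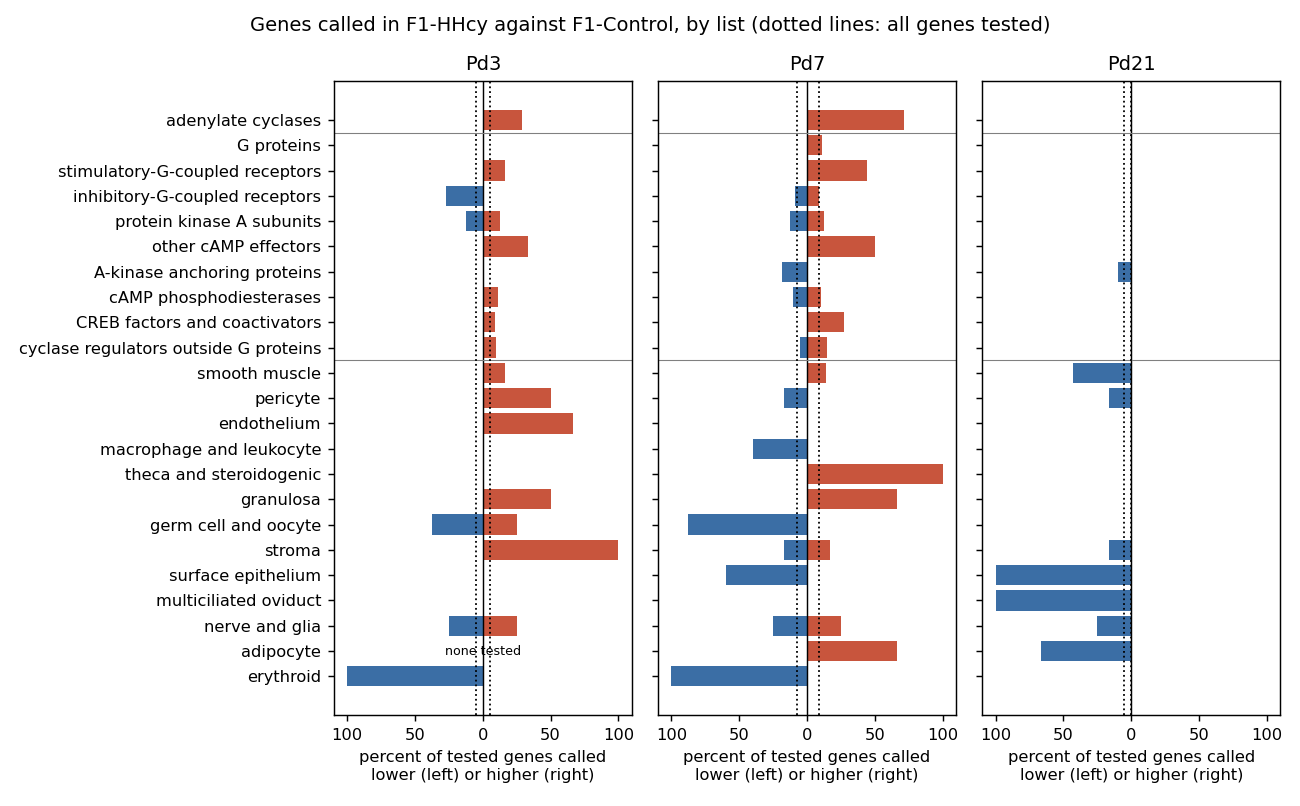
Percent of the tested genes of each list called higher (right, red) or lower (left, blue) in F1-HHcy at Pd3, Pd7 and Pd21, for the adenylate cyclases, 9 lists of the cyclic AMP pathway and 13 lists of cell type markers, with the shares over all genes tested as dotted lines. The cyclases stand at 2 of 7 at Pd3 and 5 of 7 at Pd7, all to the right, and at Pd7 the theca list reaches 7 of 7. Some genes, such as Lhcgr and Fshr, are in a pathway list and in a marker list.

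The genes whose pattern was most like that of a called member were found by Pearson's r of log2(FPKM + 1) over the 18 libraries after each day's mean was taken away, among 13429 genes with a mean of at least 1 FPKM. These values describe the likeness, and the libraries share the diet difference within a day. For Adcy7 the nearest gene was Ptch1, the hedgehog receptor (r = 0.989), followed by Lamc3 (0.959), Wipf1 (0.957) and Stard8 (0.951). For Adcy5 they were Vldlr (0.970), Itgb3, Tmtc1, Lamc3 and Mrvi1, and Lamc3 is thus named for both. Adcy4 was nearest to Cacna1c (0.963), Arap3, Stab1, Ccm2l and Sned1, Adcy9 to Tanc2 (0.954), Rhobtb1, Card6, Syne3 and Epn2, and Adcy6 to Kmt5b (0.973), Tnrc6c, Adgrl1, Dido1 and Fam13b. Among the members themselves the closest pairs were Adcy1 with Adcy5 (0.908) and Adcy5 with Adcy7 (0.887), and the least alike were Adcy2 and Adcy9 (0.055).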

How the data were processed

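Ovaries of F1 females were measured by poly-A RNA-seq in 18 libraries, 3 for each of 6 diet and day groups, with groups taken from the labels. The FPKM values were deposited by the authors, 1 file per library, over 30172 gene symbols. The submitters' processing notes name FastQC 0.11.9, Trimmomatic 0.39, STAR 2.7.9a, featureCounts 2.0.1 and GRCm38, and the gene annotation is not given in the sources used here. Whole fragments were recovered from the FPKM steps for 27294 of 27294 genes above 0 in at least 3 libraries (100%, tolerance 0.05 fragments).

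Genes with at least 1 FPKM in 3 libraries were tested with limma 3.58.1 (R 4.3.3, trend) on log2(FPKM + 1), fitted over all genes, with Benjamini-Hochberg adjusted p-values. Diet was tested within a day on 6 libraries, and age and the differences between days in 1 model of 18 libraries. A call asked for p under 0.05 before adjustment and a change over 0.58 in size on that scale. An exact permutation test of 3 against 3 libraries cannot go below 0.1 (two-sided), so none is given. The fits were tested on simulated data. Figures and sequences were handled with Python 3.11.15.

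The members, the pathway lists and the marker lists were chosen with earlier results of these data known. All 9 members are described, and of each pathway list and day the 2 called genes with the smallest p and the most abundant gene are named. For each called member the 5 genes with the highest correlation are named, except 1 that is not reported here. Genes of the text beyond that rule (Cxcr4, Camk2g, Prkcd, Fshr, Ptger4 and Crtc1) were chosen after their values were seen. Replicate numbers were checked for pairing: the deviations of libraries with the same number correlated at -0.34 to 0.0872, so the numbers were not taken as pairs. Alternatives were another pseudocount (0.1), no filter, median-ratio scaling, adjusted p, a replicate block, limma-voom on fragments and leaving out each library. Protein sequences were not used here.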

Additional observations from a re-analysis of the deposited data

Results flagged for a closer look

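The diet effect of several members differed between days by the interaction term of the 18-library limma model, with an unadjusted p under 0.05 and a difference over 0.58 in size on the log2(FPKM + 1) scale. Each value is the effect on the first day minus that on the second, and none had an adjusted p under 0.05. For Pd7 minus Pd3 this was Adcy2, at -0.65 (its effect was 0.55 at Pd3 and -0.10 at Pd7). This is 1 of 8 tested members, near the 10% of all genes called in that contrast, and without F1-HHcy Pd3 replicate 2 it was 0 of 8. For Pd21 minus Pd3 these were Adcy7, at -1.90, and Adcy5, at -1.39. For Pd21 minus Pd7 these were Adcy5 at -1.56, Adcy7 at -1.42, Adcy6 at -0.89, Adcy4 at -0.72 and Adcy9 at -0.66. Pd21 was a batch of its own, so in the differences with Pd21 the day and the batch cannot be told apart.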

How the results depend on the processing

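The number of members called for diet at Pd7 (5) and Pd21 (0) stayed within 1.5 times under every alternative run, with 4 to 5 and 0 when single libraries were left out. The cause of the other shifts was not tested. With an adjusted p under 0.05, the calls were 1 at Pd3 (from 2), 1 for Pd7 against Pd3 in F1-HHcy (from 3), and 0 for each difference between days (from 1 for Pd7 minus Pd3, 2 for Pd21 minus Pd3 and 5 for Pd21 minus Pd7). With limma-voom and at least 10 fragments, chosen after seeing the data, they were 4 for Pd7 against Pd3 in F1-Control (from 2), 5 in F1-HHcy, 2 for Pd7 minus Pd3 and 4 for Pd21 minus Pd3. In F1-HHcy they were also 5 with a pseudocount of 0.1 and 5 with limma-voom under the usual filter. For Pd7 minus Pd3 they were 2 with median-ratio scaling and 2 with the 12 libraries of batch 1. In these 2 settings, and with limma-voom and at least 10 fragments, 1 diet effect was larger at Pd7 and 1 was smaller. For Pd21 minus Pd7 they were 3 with no filter. When single libraries were left out, the calls ranged from 2 to 4 for diet at Pd3, 2 to 3 and 2 to 4 for age in F1-Control and F1-HHcy, 0 to 2 for Pd7 minus Pd3, 2 to 3 for Pd21 minus Pd3 and 1 to 6 for Pd21 minus Pd7. Where this left 2 libraries in a group, the spread was pooled with the other groups. Without F1-Control Pd7 replicate 1, the 3 calls for age in F1-Control were 2 higher and 1 lower at Pd7. With the replicate number as a block, the calls were 2, 5 and 0 for diet at Pd3, Pd7 and Pd21, 2 and 3 for age, and 1, 2 and 4 for the differences between days. Of 979 values of single members under an alternative, 42 lost a call, 39 gained one and 0 changed sign with a call. The other 898 kept their side of the threshold, and uncalled values whose sign changed would be counted among them. Adcy8, with at most 36 fragments in a library, is limited by depth.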
